A study of Mus musculus with 16 samples.

Results

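Tumour necrosis factor (TNF) receptors are cell surface proteins with cysteine-rich extracellular repeats that bind trimeric ligands of the TNF family. Receptors with a cytoplasmic death domain recruit adaptors such as TRADD and FADD and can signal to NF-kB or to cell death. Other receptors bind TRAF proteins directly and signal to NF-kB and MAP kinases, and decoy receptors bind a ligand without a death domain to pass the signal on. In the intestinal epithelium the family is known for TNF-driven cell death and inflammation, for RANK-driven formation of M cells and for responses to injury.

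The 10 genes described here were taken by symbol from the deposited tables of mouse jejunal organoids, which list 20790 genes at day 2 and 20658 genes at day 4. They are the 2 TNF receptors (Tnfrsf1a and Tnfrsf1b), the death domain receptor Tnfrsf21, the TRAF-binding receptors Tnfrsf12a, Tnfrsf11a, Tnfrsf14 and Tnfrsf18, and the clustered genes Tnfrsf22, Tnfrsf23 and Tnfrsf26. Each table lists all 10. The members were chosen by symbol with their fold changes between 4-hydroxytamoxifen (4OHT) and DMSO organoids known, so the members' values in that comparison and its difference between days are given as a description, with no p-value. The number of members past the threshold used for all genes is printed there beside the share of all genes, and nothing is read from it. Another 18 receptors of the family were set beside them, of which 15 are listed in at least 1 table. These receptors and the gene lists below were also chosen with earlier results of these data known. Their counts and p-values are therefore not independent of the choice.

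All organoids were epithelial cultures from the jejunum of C57BL/6 mice with the genotype Villin-CreERT2; Hnf4a flox/flox. CreERT2 is a recombinase that 4OHT activates, and the Villin promoter restricts it to intestinal epithelium. The 4OHT organoids received the drug at 0.5 µM for 24 h to delete Hnf4a, a nuclear receptor gene, and were then split, while control organoids of the same genotype received the solvent DMSO. Both kinds were labelled day 2 or day 4, with 4 libraries in each of the 4 groups. The labels' protocol mentions harvesting at day 4 only, so each library's day was read from its time point label. No group without CreERT2 that received 4OHT is among the samples, so an effect of 4OHT itself cannot be told apart from that of the deletion. Whether the replicates are separate animals or cultures is not stated, so the p-values cover library-to-library spread, possibly only technical.

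Library totals were 63.8 M to 93.3 M counts. Levels are given as CPM, the read count scaled to library size, after TMM scaling, which sets 1 factor per library from the bulk of the genes, over all 16 libraries together. The targeted gene Hnf4a was at 482 to 532 CPM in the 4OHT libraries and 979 to 1046 CPM in the DMSO libraries at day 2, and at 454 to 490 CPM in the 4OHT libraries and 956 to 983 CPM in the DMSO libraries of day 4. Its log2 fold change was -0.99 ± 0.05 (SE) at day 2 and -1.04 ± 0.05 at day 4 (edgeR adjusted p = 8.25e-08 and 1.14e-06). Counts are over the whole gene, so transcripts that lack only the deleted part can still be counted. The share of cells that carried the deletion was not measured here, so these counts do not show how complete it was. The 6 epithelial markers summed to 6306 to 12507 CPM per library. Of the 8 immune markers, 7 are listed, with sums of 5.49 to 9.59 CPM in the day 4 4OHT libraries and 5.03 to 9.59 CPM over all libraries. The stromal and endothelial markers summed to at most 2.46 and 0.749 CPM, and Tyrobp, Col1a2, Col3a1, Dcn, Lum, Cdh5, Kdr and Emcn are not listed. Replicate 4 of 4OHT at day 4 stood apart in a principal component analysis, at 19.2 on the second component, where the other 3 libraries of its group lay at 5.9 to 12.1. Several results are given with and without it, and values given once can also depend on it.

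The promoters of 4 members are shown first, Tnfrsf21, Tnfrsf23 and Tnfrsf12a for the size of their differences between the groups and Tnfrsf1b for its motif matches. RefSeq promoter windows of GRCm38.p6, with 250 bases before and 50 bases from the start site on, were at hand for 8 of the 10 members and were searched on both strands for 4 motifs: AP-1 (TGANTCA), TEAD (CATTCC), NF-kB (GGG and TTCC with any 3 bases between them) and HNF4 (CAAAGNNCA). The windows are chr17:43016305-43016604 on the plus strand for Tnfrsf21, chr7:143685826-143686125 on the minus strand for Tnfrsf23, chr17:23677400-23677699 on the minus strand for Tnfrsf12a and chr4:145246821-145247120 on the minus strand for Tnfrsf1b. Capitals mark motif matches.
Tnfrsf21: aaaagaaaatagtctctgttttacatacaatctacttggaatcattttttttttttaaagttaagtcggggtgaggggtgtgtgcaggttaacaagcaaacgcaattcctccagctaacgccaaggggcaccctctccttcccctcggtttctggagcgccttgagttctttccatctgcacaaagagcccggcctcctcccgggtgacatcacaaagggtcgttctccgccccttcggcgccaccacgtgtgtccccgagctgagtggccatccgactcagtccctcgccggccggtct
Tnfrsf23: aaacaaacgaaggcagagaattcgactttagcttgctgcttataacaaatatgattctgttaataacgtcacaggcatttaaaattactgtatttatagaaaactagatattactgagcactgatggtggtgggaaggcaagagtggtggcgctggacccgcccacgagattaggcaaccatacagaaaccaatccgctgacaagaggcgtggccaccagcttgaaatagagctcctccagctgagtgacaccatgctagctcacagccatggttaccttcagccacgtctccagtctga
Tnfrsf12a: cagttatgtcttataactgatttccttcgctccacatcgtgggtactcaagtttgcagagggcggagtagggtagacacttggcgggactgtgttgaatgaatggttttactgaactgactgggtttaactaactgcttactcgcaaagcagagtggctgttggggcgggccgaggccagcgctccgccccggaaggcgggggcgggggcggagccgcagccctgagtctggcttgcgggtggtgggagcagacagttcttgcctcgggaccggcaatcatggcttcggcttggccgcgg
Tnfrsf1b: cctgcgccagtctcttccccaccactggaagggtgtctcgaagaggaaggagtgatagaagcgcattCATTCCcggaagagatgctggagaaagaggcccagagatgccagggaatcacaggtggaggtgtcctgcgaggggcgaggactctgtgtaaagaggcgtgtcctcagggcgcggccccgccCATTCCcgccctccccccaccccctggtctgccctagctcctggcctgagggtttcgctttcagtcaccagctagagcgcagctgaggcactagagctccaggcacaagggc
In the Tnfrsf1b window the TEAD letters CATTCC start at positions -183 and -62 from the start site. The Tnfrsf11a window holds the same letters on the other strand, at -160, and the other 6 windows hold no match of the 4 motifs. Of 32851 promoter windows of the same length, 14.66% hold the TEAD letters, 7.81% the AP-1 letters, 6.36% the HNF4 letters and 5.56% the NF-kB letters. A match is a description of the letters and not a measured site.

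Per length of exon sequence (CPM per kb), the members covered a wide range, and their order below the top differed between the days. Tnfrsf1a was the highest member in each group, at 52.5 ± 1.97 CPM per kb in 4OHT at day 2, 50.3 ± 3.21 in DMSO at day 2, 47.6 ± 2.31 in 4OHT at day 4 and 40.3 ± 0.907 in DMSO at day 4 (SD, n = 4 each). Tnfrsf12a was second in each group, at 35.1 ± 3.71 CPM per kb in 4OHT and 24.1 ± 1.97 in DMSO at day 2, and 12.7 ± 4.01 in 4OHT and 8.27 ± 1.12 in DMSO at day 4, where its range overlapped that of the next member, Tnfrsf21 in 4OHT and Tnfrsf14 in DMSO libraries. In the 4OHT libraries of day 2 the order then ran Tnfrsf21, Tnfrsf1b, Tnfrsf11a, Tnfrsf14, Tnfrsf23, Tnfrsf18, Tnfrsf22 and Tnfrsf26, and the ranges of neighbours overlapped only for Tnfrsf18 and Tnfrsf22. In the DMSO libraries of day 2 the order was the same, with overlapping ranges for Tnfrsf21 and Tnfrsf1b and for Tnfrsf11a and Tnfrsf14. At day 4 Tnfrsf21 followed Tnfrsf12a in 4OHT libraries, at 11.3 ± 1.5 CPM per kb, and came after Tnfrsf14 and Tnfrsf11a in DMSO libraries, at 5.83 ± 0.172 CPM per kb. Ranges of neighbours in the order also overlapped at day 4 from Tnfrsf11a through Tnfrsf1b and Tnfrsf14 to Tnfrsf23 and for Tnfrsf18 and Tnfrsf22 in 4OHT libraries, and for Tnfrsf14 and Tnfrsf11a and for Tnfrsf21 and Tnfrsf1b in DMSO libraries. Tnfrsf26 was the lowest member in each group, with means of 0.0936 CPM per kb (4OHT) and 0.0392 (DMSO) at day 2, and 0.0661 (4OHT) and 0.00721 (DMSO) at day 4. Among the other receptors Ltbr, the lymphotoxin beta receptor, lay above Tnfrsf1a, at 74.1 CPM per kb in 4OHT and 70.4 in DMSO at day 2, and 64.0 in 4OHT and 55.7 in DMSO at day 4.

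**Figure D1:**
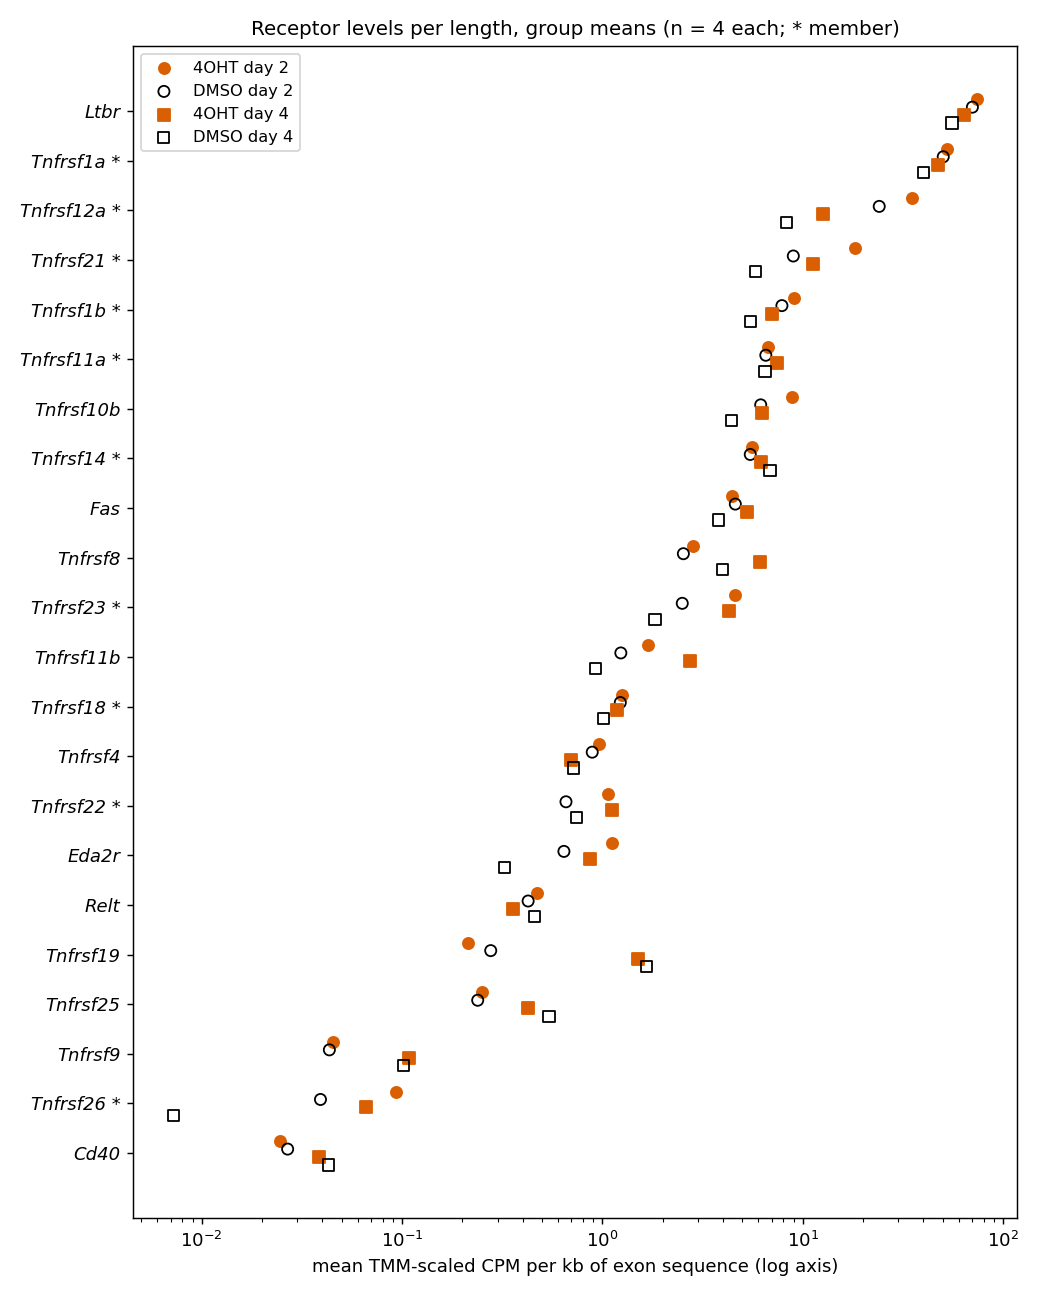
Mean TMM-scaled CPM per kb of exon sequence (log axis) of the 10 members, marked with an asterisk, and of 12 other receptors that passed the filter on low counts in at least 1 treatment comparison, with a point for each of the 4 groups (n = 4 libraries each). Tnfrsf1a and Tnfrsf12a are the 2 highest members in each group, and Tnfrsf26 is the lowest.

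Between 4OHT and DMSO at day 2, 6 of the 10 members passed the call used here (edgeR adjusted p below 0.05 over all genes tested) as higher in 4OHT and 0 as lower (4 to 6 and 0 with each library left out in turn), where 31.1% of the 15897 genes tested were called, 16.9% higher and 14.3% lower. They were Tnfrsf21, Tnfrsf23, Tnfrsf22, Tnfrsf26, Tnfrsf12a and Tnfrsf1b. At day 4, 7 of the 9 members that passed the filter on low counts were called higher and 0 lower (5 to 8 and 0 with each library left out in turn), where 24.7% of the 16040 genes tested were called, 13.7% higher and 11.1% lower (3651 genes higher and 3565 lower with the replicate number as a block, against 2191 and 1776 without it). These were Tnfrsf23, Tnfrsf21, Tnfrsf12a, Tnfrsf22, Tnfrsf1b, Tnfrsf1a and Tnfrsf11a. Tnfrsf26 was under the filter on low counts at day 4. At day 2 it passed the filter through its 4OHT libraries, where it was higher, which favours its call. The median log2 fold change of the members was 0.38 at day 2 and 0.36 at day 4, against -0.0027 and -0.0070 over all genes tested, and nothing is read from these counts and medians, since the choice of members used this comparison. In bulk RNA a change in the number of cells that express a receptor and a change in RNA per cell cannot be told apart.

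Tnfrsf21, known as death receptor 6, has a cytoplasmic death domain and spans chr17:43016555-43089189 on the plus strand (GRCm38, ENSMUSG00000023915). It had 72.0, 68.5, 77.0 and 81.3 CPM in the 4OHT libraries of day 2, against 35.4, 37.1, 35.6 and 39.5 CPM in the DMSO libraries. No 4OHT library came near a DMSO library, and the log2 fold change was 1.02 ± 0.06, a fold of 2.03. At day 4 Tnfrsf21 had 46.2, 41.4, 42.8 and 55.1 CPM in 4OHT and 23.3, 24.2, 23.4 and 24.8 CPM in DMSO libraries. All 4OHT libraries were again above all DMSO libraries, with replicate 4 the highest. The log2 fold change was 0.96 ± 0.08 with that library and 0.87 ± 0.05 without it.

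Tnfrsf12a encodes Fn14, the receptor for the ligand TWEAK, which is known for its induction in injured epithelium (chr17:23675445-23677468, minus strand, ENSMUSG00000023905). At day 2 it stood at 61.9, 61.6, 71.9 and 75.7 CPM in 4OHT libraries and 44.2, 48.8, 42.6 and 50.7 CPM in DMSO libraries. The groups did not overlap, and the log2 fold change was 0.55 ± 0.08. At day 4 the 4OHT libraries had 19.1, 18.9, 24.6 and 35.4 CPM and the DMSO libraries 13.8, 15.1, 16.1 and 18.9 CPM. The lowest 4OHT library lay at the level of the highest DMSO library, and replicate 4 of 4OHT was far above the others. The day 4 log2 fold change was 0.62 ± 0.19 with that library and 0.39 ± 0.12 without it.

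Tnfrsf1a encodes TNF receptor 1, the death domain receptor that most cells carry (chr6:125349362-125362484, plus strand, ENSMUSG00000030341). Its day 2 levels were 137, 141, 138 and 129 CPM in 4OHT and 139, 131, 133 and 119 CPM in DMSO libraries, which overlap. At day 4 they were 118, 120, 126 and 131 CPM in 4OHT and 105, 101, 107 and 105 CPM in DMSO libraries, with no overlap. The log2 fold change was 0.07 ± 0.05 at day 2 and 0.24 ± 0.05 at day 4.

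Tnfrsf1b encodes TNF receptor 2, which binds TRAF2 and lacks a death domain (chr4:145213463-145246870, minus strand, ENSMUSG00000028599). It had 33.1, 32.8, 37.5 and 35.1 CPM in 4OHT and 29.3, 29.5, 28.5 and 33.0 CPM in DMSO libraries at day 2. One DMSO library, replicate 4, reached into the 4OHT range, and the log2 fold change was 0.21 ± 0.06. At day 4 Tnfrsf1b had 26.8, 24.6, 26.7 and 29.0 CPM in 4OHT and 20.6, 19.3, 21.2 and 22.4 CPM in DMSO libraries. The day 4 groups did not overlap, and the log2 fold change was 0.36 ± 0.07. Leukocytes also carry this receptor. The immune markers summed to 6.12 to 6.71 CPM in 4OHT and 5.94 to 7.12 CPM in DMSO libraries at day 2. At day 4 they summed to 5.49 to 9.59 CPM in 4OHT and 5.03 to 5.95 CPM in DMSO libraries. Cd68 and Itgam were the highest of them, with group means of 2.32 to 3.80 and 2.02 to 2.89 CPM. The group means of Ptprc were 0.0145 to 0.0624 CPM. The part of leukocytes in the result was not tested.

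Tnfrsf11a encodes RANK, the receptor through which RANK ligand drives M cell formation (chr1:105780718-105847981, plus strand, ENSMUSG00000026321). At day 2 it had 40.6, 39.3, 39.2 and 40.7 CPM in 4OHT and 38.9, 40.2, 38.02 and 39.6 CPM in DMSO libraries, which is a narrow and overlapping range. At day 4 it had 46.8, 44.6, 42.2 and 44.3 CPM in 4OHT and 37.1, 40.3, 39.2 and 38.7 CPM in DMSO libraries. The day 4 groups did not overlap, with a log2 fold change of 0.20 ± 0.05, against 0.04 ± 0.04 at day 2. Of the 7 M cell markers, 5 are listed, and the defining markers Gp2 and Sox8 are not. The 5 summed to 240 to 254 CPM in 4OHT and 290 to 352 CPM in DMSO libraries at day 2. At day 4 they summed to 256 to 335 CPM in 4OHT and 246 to 280 CPM in DMSO libraries. The markers moved both ways, with 1 called higher and 3 lower at day 2, and 2 higher and 1 lower at day 4. Shares over all genes tested were 16.9% and 14.3% at day 2, and 13.7% and 11.1% at day 4. The 2 most abundant, Pglyrp1 and Ccl9, had -0.20 and -1.01 at day 2, and 0.38 and -0.61 at day 4. The part of the markers in the result was not tested.

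Tnfrsf14, the herpesvirus entry mediator that binds LIGHT, and Tnfrsf18, known as GITR from T cells, were not called on either day. Tnfrsf14 (chr4:154921933-154928563, minus strand, ENSMUSG00000042333) ranged over 7.36 to 8.73 CPM in 4OHT and 5.95 to 9.47 CPM in DMSO libraries at day 2, and over 8.31 to 9.36 CPM in 4OHT and 8.69 to 10.6 CPM in DMSO libraries at day 4. Its log2 fold change was 0.03 ± 0.13 at day 2 and -0.15 ± 0.08 at day 4. Tnfrsf18 (chr4:156026164-156028895, plus strand, ENSMUSG00000041954) was low, with 108 to 227 counts in the 4OHT libraries and 131 to 169 counts in the DMSO libraries of day 2. Its CPM ranges overlapped on both days, and the log2 fold change was 0.05 ± 0.15 at day 2 and 0.22 ± 0.15 at day 4, and 0.09 ± 0.14 at day 4 without replicate 4 of 4OHT. The antisense gene Gm16008 shares exonic bases with Tnfrsf18, and the strand setting of the counting is not given in the sources used here, so the counts of Tnfrsf18 are uncertain.

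**Figure D2:**
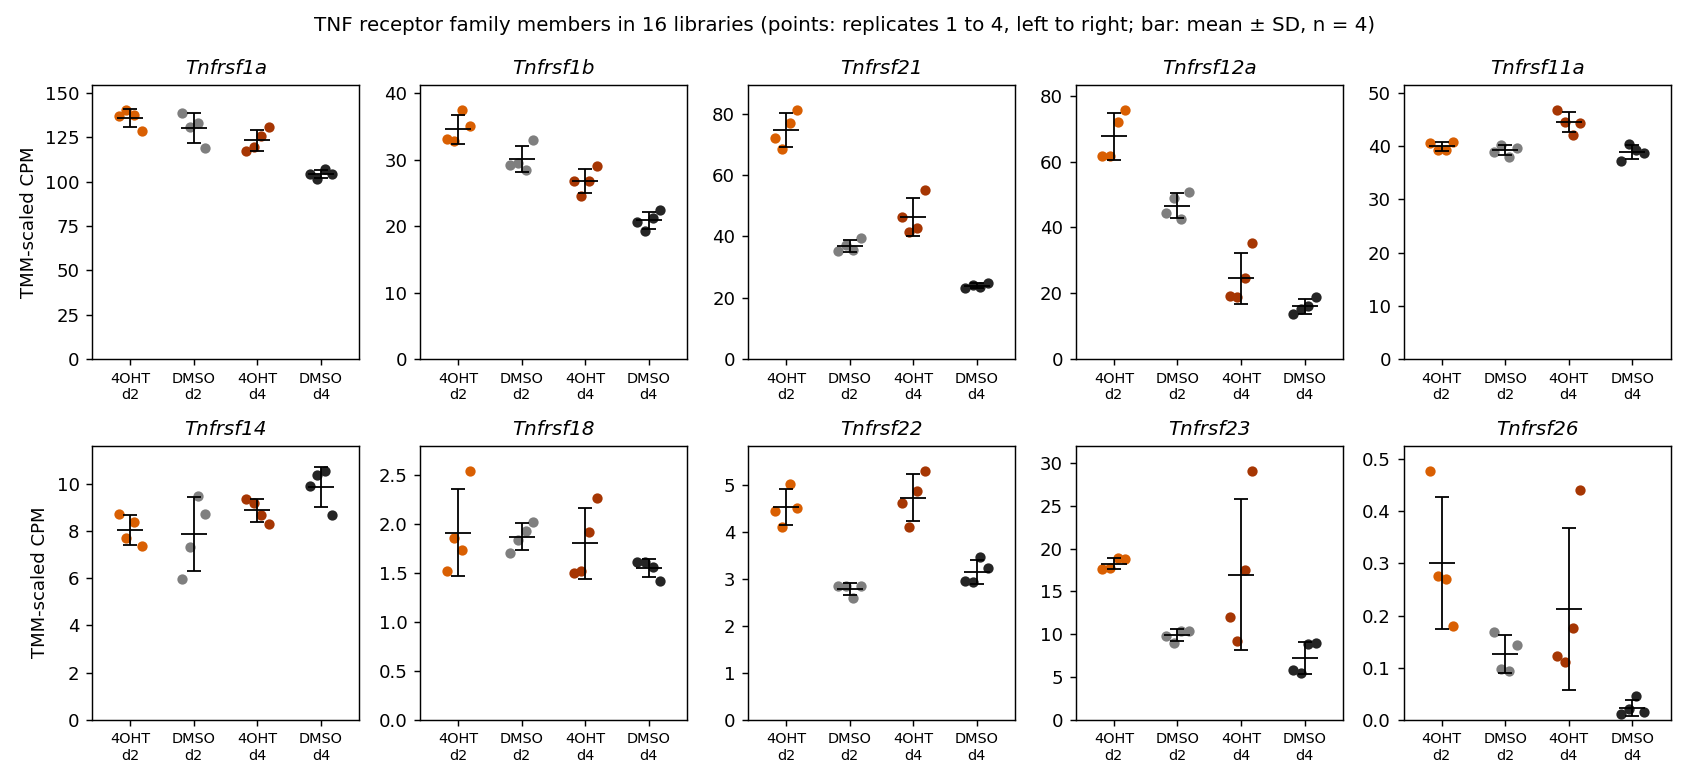
TMM-scaled CPM of the 10 members in each of the 16 libraries, with 4OHT (orange) to the left of DMSO (grey or black) on each day; points are replicates 1 to 4 from left to right and bars show the mean and SD (n = 4). Tnfrsf21 lies at 68.5 to 81.3 CPM in 4OHT and 35.4 to 39.5 CPM in DMSO at day 2, and replicate 4 of 4OHT at day 4 is the highest of its group for Tnfrsf12a, Tnfrsf21, Tnfrsf23 and Tnfrsf26.

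Tnfrsf26, Tnfrsf22 and Tnfrsf23 lie side by side on the minus strand of chromosome 7 over 78.2 kb. In mice the proteins of Tnfrsf22 and Tnfrsf23 bind the death ligand TRAIL without a death domain and are known as decoy receptors. The coding sequences of Tnfrsf22 and Tnfrsf23 were 90.5% identical over 528 aligned bases, and the annotated transcripts share 719 stretches of 50 bases, which are 17.34% of those of Tnfrsf22 and 18.01% of those of Tnfrsf23. Reads that lie wholly within shared sequence cannot be placed on 1 of the 2 genes. How many reads did so was not measured here, and the counts of both genes are uncertain to that extent. Tnfrsf26 was 58.7% identical to Tnfrsf22 and 55.5% to Tnfrsf23, with 0 shared stretches.

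Tnfrsf23 (chr7:143665809-143685872, ENSMUSG00000037613) was the most abundant of the 3. It had 17.6, 17.7, 18.9 and 18.8 CPM in 4OHT and 9.82, 9.02, 10.4 and 10.4 CPM in DMSO libraries at day 2. The groups were tight and far apart, with a log2 fold change of 0.89 ± 0.06. The day 4 levels were 12.0, 9.24, 17.5 and 29.1 CPM in 4OHT and 5.81, 5.46, 8.82 and 8.93 CPM in DMSO libraries. The lowest 4OHT library was just above the highest DMSO library, and the 4OHT libraries differed widely among themselves. The day 4 log2 fold change was 1.24 ± 0.35, and 0.85 ± 0.25 without replicate 4 of 4OHT.

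Tnfrsf22 (chr7:143634806-143649661, ENSMUSG00000010751) had 4.44, 4.09, 5.02 and 4.51 CPM in 4OHT and 2.84, 2.83, 2.58 and 2.85 CPM in DMSO libraries at day 2. At day 4 it had 4.61, 4.10, 4.86 and 5.30 CPM in 4OHT and 2.95, 2.93, 3.45 and 3.24 CPM in DMSO libraries. The groups did not overlap on either day, and the log2 fold change was 0.71 ± 0.08 at day 2 and 0.59 ± 0.11 at day 4. With the counts of Tnfrsf22 and Tnfrsf23 summed, an alternative added after the data were seen, the log2 fold change was 0.85 ± 0.06 at day 2 and 1.07 ± 0.28 at day 4.

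Tnfrsf26 (chr7:143607659-143628722, ENSMUSG00000045362), the third gene of the cluster, was close to the limit of detection. It had 34, 21, 17 and 16 counts in the 4OHT libraries and 13, 9, 8 and 12 counts in the DMSO libraries of day 2. At day 4 it had 10, 9, 13 and 36 counts in 4OHT and 1, 2, 3 and 1 counts in DMSO libraries. In CPM all 4OHT libraries were above all DMSO libraries on both days, by little at day 2. The day 2 log2 fold change was 1.248 ± 0.34, for a gene that passed the filter through its 4OHT libraries. No fold is given for day 4, where the gene was filtered. E230032D23Rik, an antisense gene that is not listed in the tables, shares exonic bases with Tnfrsf23 and Tnfrsf26.

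Of 12 annotated genes within 300 kb of the cluster, 10 passed the filter on low counts. At day 2, 2 of the 10 rose (Osbpl5 and Cars) and 4 fell (Cdkn1c, Dhcr7, Kcnq1 and Nadsyn1). Of all genes tested 16.9% rose and 14.3% fell at day 2. At day 4, 2 of the 10 rose (Osbpl5 and Slc22a18) and 2 fell (Kcnq1 and Nap1l4), where 13.7% of all genes tested rose and 11.1% fell. Osbpl5, an oxysterol-binding protein gene whose near end is 2.9 kb from the cluster, had 28.8 ± 1.26 CPM in 4OHT and 19.4 ± 0.503 CPM in DMSO libraries at day 2 (log2 fold change 0.58 ± 0.05, edgeR adjusted p = 2.57e-06). At day 4 it had 21.9 ± 2.00 CPM in 4OHT and 14.3 ± 0.765 CPM in DMSO libraries (0.61 ± 0.07, adjusted p = 0.000315; SD, n = 4 each). Cars, a cysteinyl-tRNA synthetase gene 7.6 kb away on the other side, rose at day 2 (0.25 ± 0.05, adjusted p = 0.00198) and had 0.12 ± 0.14 at day 4 (adjusted p = 0.578). Slc22a18 rose at day 4 (0.30 ± 0.08, adjusted p = 0.0222) and had -0.14 ± 0.08 at day 2 (adjusted p = 0.174). The values of the neighbours lay on both sides of 0.

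**Figure D3:**
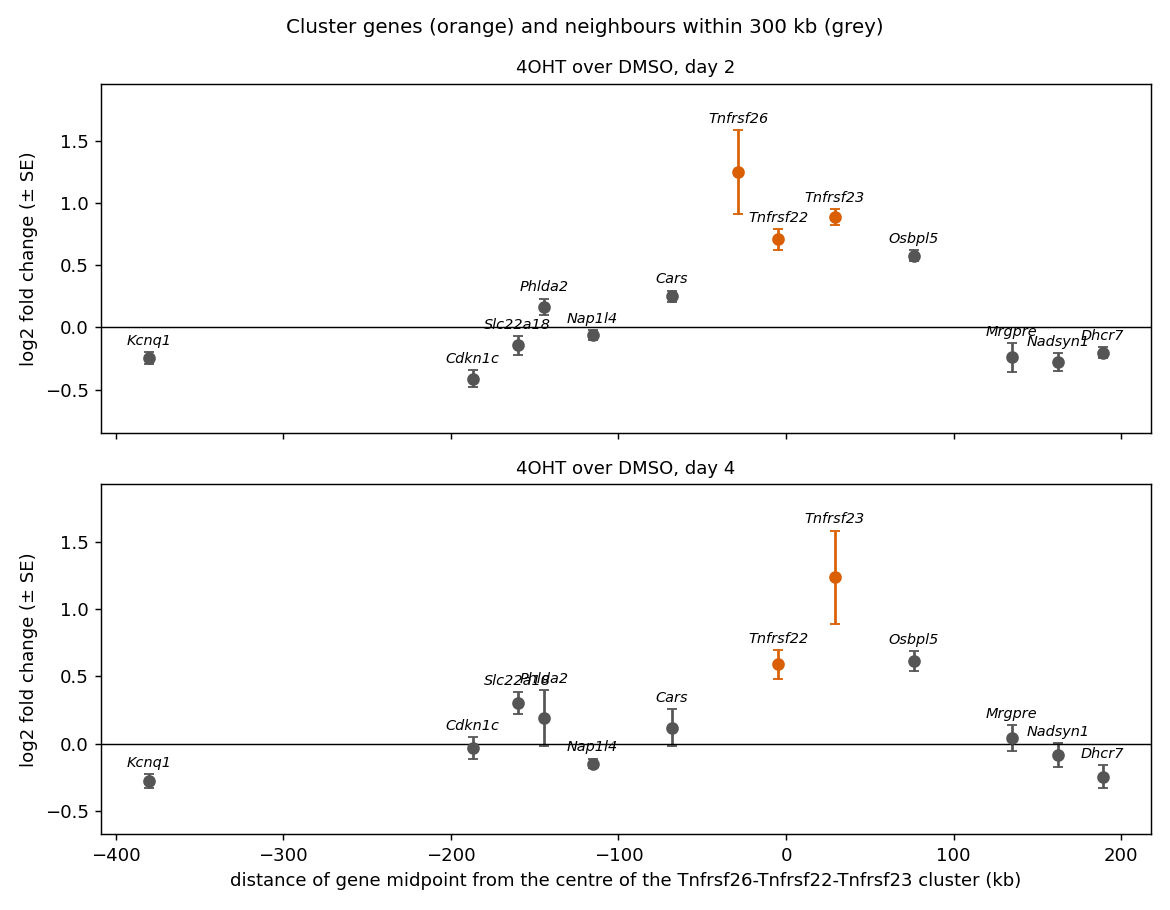
Log2 fold change of 4OHT over DMSO (± SE) at day 2 (top) and day 4 (bottom) against the distance of each gene's midpoint from the centre of the Tnfrsf26, Tnfrsf22 and Tnfrsf23 cluster in kb, with cluster genes in orange and the 10 neighbours that passed the filter in grey. Osbpl5 is at 0.58 and 0.61, Kcnq1 at -0.25 and -0.28, and Tnfrsf26 is missing at day 4, where it was filtered.

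All 4OHT libraries were above all DMSO libraries for 5 of the 10 members at day 2 (Tnfrsf12a, Tnfrsf21, Tnfrsf22, Tnfrsf23 and Tnfrsf26), where the groups of 31.8% of all genes tested did not overlap, 17.0% higher and 14.8% lower, and for 6 of the 9 tested at day 4 (Tnfrsf1a, Tnfrsf1b, Tnfrsf11a, Tnfrsf21, Tnfrsf22 and Tnfrsf23), where those of 28.3% did not, 14.7% higher and 13.6% lower. Tnfrsf26 passed the day 2 filter through its 4OHT libraries, which favours its place among the 5. No member had all 4OHT libraries below all DMSO libraries. Replicate 4 of 4OHT at day 4 was the highest library of its group for 8 of the 10 members and the lowest for Tnfrsf14. The library stood apart over the genes at large, and the same count was not made over all genes. Nothing particular to the members is read from it. The log2 difference between the days, the day 4 fold change minus the day 2 fold change, had a median of 0.16 over the 10 members. It ran over -0.18 ± 0.16 for Tnfrsf14, -0.06 ± 0.11 for Tnfrsf21, 0.08 ± 0.23 for Tnfrsf12a, 0.18 ± 0.07 for Tnfrsf1a and 0.36 ± 0.38 for Tnfrsf23, up to 1.95 ± 0.81 for Tnfrsf26. The values of Tnfrsf26, which also enter the medians, rest on 1, 2, 3 and 1 counts in the DMSO libraries of day 4. The gene was under the filter of the day 4 comparison, and passed that of the fit over 16 libraries through libraries where it was higher. Without replicate 4 of 4OHT at day 4 the median was 0.0083. The value was then -0.15 ± 0.16 for Tnfrsf12a and -0.034 for Tnfrsf23, both with the sign turned, -0.15 for Tnfrsf21, 0.05 for Tnfrsf18 and 1.30 for Tnfrsf26. That fit keeps DMSO replicate 4 of day 4, the highest of its group for Tnfrsf12a, Tnfrsf1b, Tnfrsf21 and Tnfrsf23. With all libraries and a replicate block within each day the median was 0.1625. Neither sign turned there, with 0.04 ± 0.12 for Tnfrsf12a and 0.26 ± 0.16 for Tnfrsf23. Of all 16597 genes in this fit, 1.68% were called in either direction, 199 higher and 79 lower, and 1170 higher and 680 lower with a replicate block within each day.

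The counts of the other receptors are a description, since their list was chosen with earlier results of these data known. Of the other 15 receptors listed, 10 were tested at day 2. Of these 3 rose and 0 fell, where 16.9% of all genes tested rose and 14.3% fell. At day 4, 6 of 12 rose and 0 fell, where 13.7% of all genes tested rose and 11.1% fell. The most abundant of these per kb was Ltbr, with 0.08 ± 0.05 at day 2 and 0.20 ± 0.04 at day 4 (edgeR adjusted p = 0.241 and 0.00829). Tnfrsf10b, the mouse death receptor for TRAIL, rose to 48.1 ± 1.252 CPM in 4OHT, against 33.7 ± 0.997 CPM in DMSO libraries at day 2, and to 34.3 ± 2.87 CPM in 4OHT, against 24.0 ± 1.79 CPM in DMSO libraries at day 4 (SD, n = 4 each). Its log2 fold change was 0.52 ± 0.04 at day 2 and 0.52 ± 0.07 at day 4 (adjusted p = 3.84e-06 and 0.000804). Eda2r, the receptor for ectodysplasin A2, rose by 0.81 ± 0.16 and 1.43 ± 0.24 at day 2 and day 4 (adjusted p = 0.00307 and 0.00227). Tnfrsf8, known as CD30, rose by 0.17 ± 0.06 at day 2 (adjusted p = 0.0367) and by 0.63 ± 0.07 at day 4 (adjusted p = 0.000173), and the day 2 call ended with a replicate block (adjusted p = 0.0565), without a low count filter (0.0741), in the fit over all 16 libraries and in 7 of the fits without 1 library. Fas, a death receptor, had -0.05 ± 0.08 at day 2 (adjusted p = 0.688) and rose by 0.48 ± 0.11 at day 4 (adjusted p = 0.0119). Tnfrsf11b, the soluble decoy receptor for RANK ligand, had 0.46 ± 0.20 at day 2 (adjusted p = 0.11) and rose by 1.56 ± 0.32 at day 4 (adjusted p = 0.00645). Its day 4 value was 1.18 ± 0.21 without replicate 4 of 4OHT, and its day 2 value was called with a replicate block. Relt had -0.35 ± 0.13 at day 4 (adjusted p = 0.0853) and was called lower with the replicate block, by which libraries of day 4 pair (-0.35, adjusted p = 0.0421). Tnfrsf4, Tnfrsf9, Tnfrsf19, Tnfrsf25 and Cd40 were not called in a treatment comparison that tested them. Ngfr, Tnfrsf13b and Tnfrsf13c were under the filter, and Cd27, Tnfrsf17 and Edar are not listed.

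**Figure D4:**
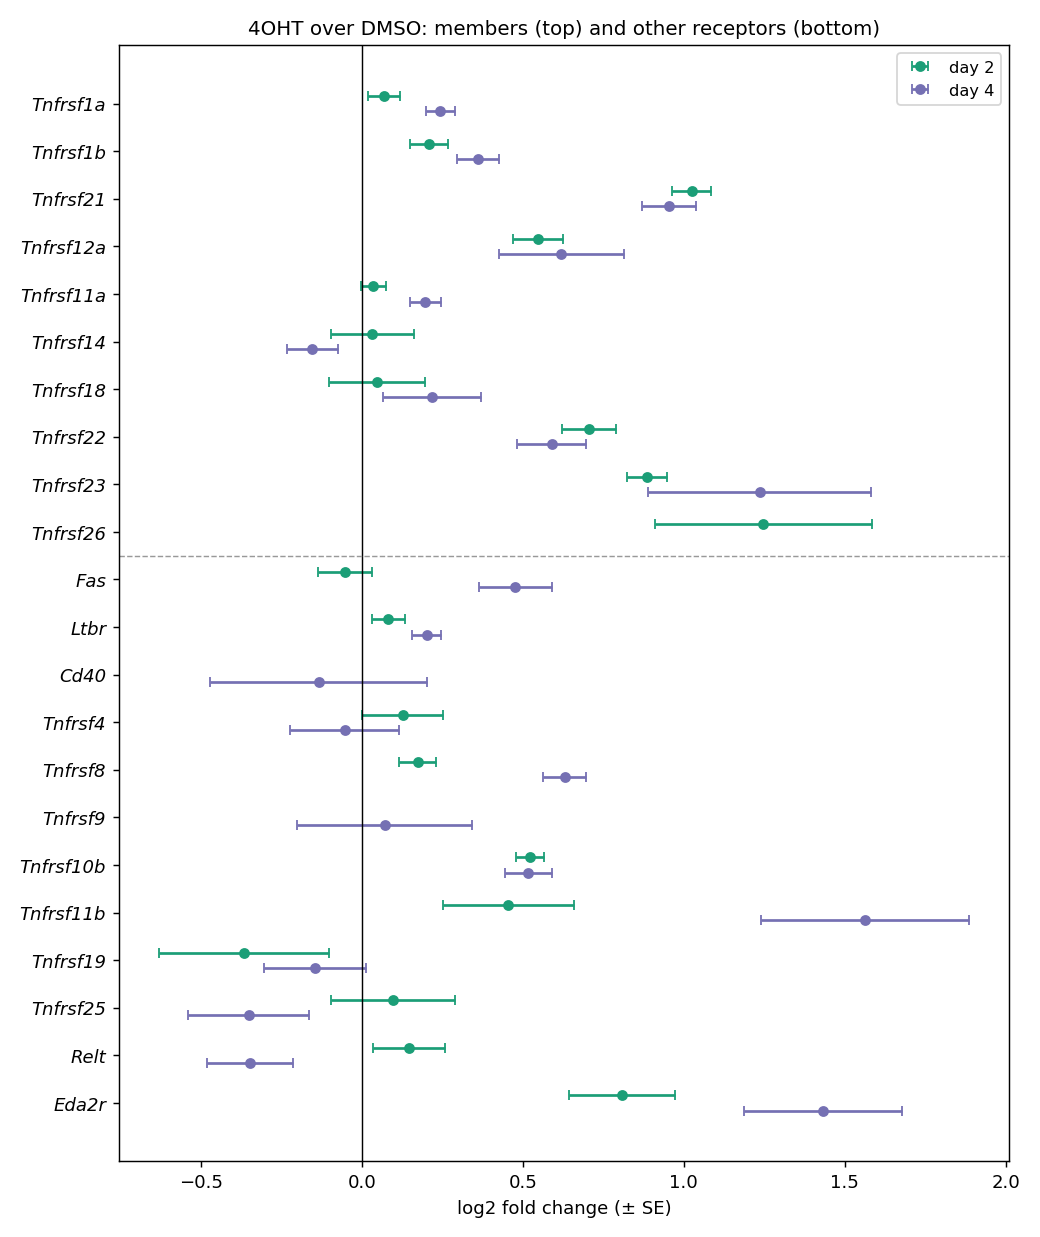
Log2 fold change of 4OHT over DMSO (± SE) at day 2 (green) and day 4 (violet) for the 10 members (above the dashed line) and the 12 other receptors tested (below it). Tnfrsf21 lies at 1.02 and 0.96 and Tnfrsf14 at 0.03 and -0.15, and a missing point means that the gene was under the filter on low counts.

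The choice of members used the treatment comparisons and not the change between the days, which was tested. The day 4 and day 2 libraries come from tables deposited separately, whose raw counts were scaled together here. Each group also enters a treatment comparison that the choice used, so the choice can favour some of these changes. The p-values do not allow for that. In 4OHT organoids 4 of 10 members fell and 1 rose at day 4 relative to day 2. Of the 15962 genes tested 49.4% were called, with 23.5% falling and 25.9% rising. Without replicate 4 of day 4, 6 members fell and 1 rose, with Tnfrsf23 and Tnfrsf26 added. Tnfrsf26 passed the filter through its day 2 libraries, where it was higher, which favours its fall. In DMSO organoids 5 of 9 members fell and 1 rose, where 53.5% of 16088 genes were called, with 24.8% falling and 28.7% rising. The median log2 fold change of the members was -0.12 in 4OHT and -0.31 in DMSO organoids, against 0.01 and 0.03 over all genes tested. The p-values of these changes are from edgeR's quasi-likelihood test, adjusted over all genes tested.

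Among the members tested in both kinds of organoid Tnfrsf12a had the largest change. It fell to 24.5 ± 7.74 CPM at day 4, against 67.8 ± 7.16 CPM at day 2, in 4OHT organoids (log2 fold change -1.46 ± 0.19, adjusted p = 0.000294), and to 15.99 ± 2.17 CPM at day 4, against 46.6 ± 3.81 CPM at day 2, in DMSO organoids (-1.53 ± 0.09, adjusted p = 4.69e-08; SD, n = 4 each). In both kinds of organoid the days did not overlap. Tnfrsf21 fell to 46.4 ± 6.16 CPM at day 4, against 74.7 ± 5.62 CPM at day 2, in 4OHT organoids (-0.68 ± 0.09, adjusted p = 0.000108) and to 23.9 ± 0.709 CPM at day 4, against 36.9 ± 1.90 CPM at day 2, in DMSO organoids (-0.61 ± 0.05, adjusted p = 1.31e-06). Each 4OHT library of day 4 was still above each DMSO library of day 2. Tnfrsf1b fell by 0.36 ± 0.06 on the log2 scale in 4OHT organoids (adjusted p = 0.000695) and by 0.51 ± 0.07 in DMSO organoids (adjusted p = 2.62e-05), in each case with no overlap between the days.

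Tnfrsf1a fell by 0.31 ± 0.05 in DMSO organoids (adjusted p = 0.000285), where the days did not overlap. In 4OHT organoids its fall of 0.13 ± 0.05 (adjusted p = 0.0396) was small and the days overlapped, and the call ended with the replicate block (0.0737), without a filter (0.0609), with a filter of 1 CPM (0.0571) and when any 1 of the 4OHT libraries other than replicate 4 of either day was left out. Tnfrsf11a rose in 4OHT organoids by 0.16 ± 0.05 (adjusted p = 0.0129), with all day 4 libraries above all day 2 libraries. In DMSO organoids its value was 0.00 ± 0.05 (adjusted p = 0.99), and its sign turned under other settings, to -0.0202 with DESeq2. Tnfrsf14 rose in DMSO organoids by 0.34 ± 0.13 (adjusted p = 0.036), a call that ended without DMSO replicate 1 or 2 of day 2 or replicate 1, 2 or 3 of day 4, and had 0.15 ± 0.08 in 4OHT organoids (adjusted p = 0.126).

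Tnfrsf23 fell in DMSO organoids by 0.45 ± 0.15 (adjusted p = 0.0269). This call ended without DMSO replicate 1 or 4 of day 2 or replicate 1 of day 4 (adjusted p = 0.0593, 0.0534 and 0.0742), in the fit over all 16 libraries (0.176) and with Tnfrsf22 and Tnfrsf23 summed (0.0635). In 4OHT organoids Tnfrsf23 had -0.10 ± 0.30 (adjusted p = 0.804), and without replicate 4 of day 4 it was called lower, at -0.49 ± 0.18 (adjusted p = 0.0458). Tnfrsf22 had 0.07 ± 0.10 in 4OHT and 0.19 ± 0.10 in DMSO organoids (adjusted p = 0.581 and 0.12), and in DMSO organoids all day 4 libraries were above all day 2 libraries. Tnfrsf26 had -0.47 ± 0.45 in 4OHT organoids, and -1.11 ± 0.37 without replicate 4 of day 4. It passed the filter there through its day 2 libraries, where it was higher, so both values are a description with no p. In DMSO organoids Tnfrsf26 was filtered, at 1, 2, 3 and 1 counts at day 4 and 13, 9, 8 and 12 counts at day 2. Without replicate 4 of day 4 Tnfrsf22 had 0.02 ± 0.10 and Tnfrsf18 -0.21 ± 0.18 in 4OHT organoids (adjusted p = 0.899 and 0.35). With all libraries Tnfrsf18 had -0.08 ± 0.19 in 4OHT and -0.26 ± 0.11 in DMSO organoids (adjusted p = 0.73 and 0.0682), and the second value was called with DESeq2 size factors (adjusted p = 0.0491) and without DMSO replicate 1 of day 2 (0.0457). In 4OHT organoids all day 4 libraries were below all day 2 libraries for 3 members and above them for 1, where the days did not overlap for 45.9% of all genes tested, 23.1% lower and 22.9% higher. In DMSO organoids they were below for 6 of 9 members and above for 1, where the days did not overlap for 48.6% of all genes, 24.2% lower and 24.4% higher.

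**Figure D5:**
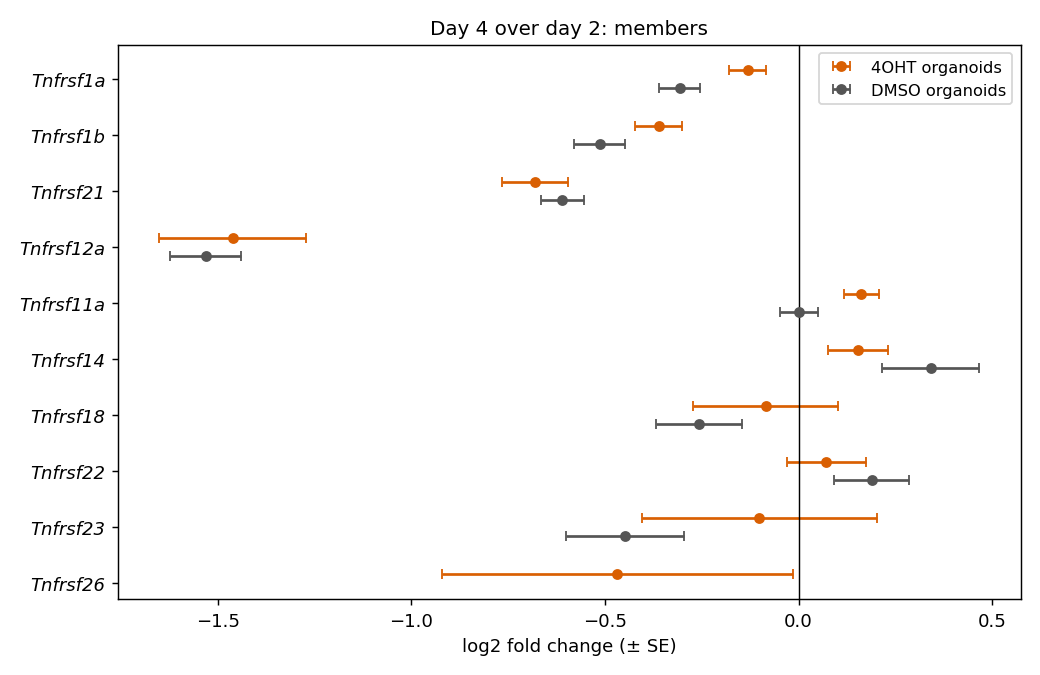
Log2 fold change of day 4 over day 2 (± SE) for the 10 members in 4OHT organoids (orange) and DMSO organoids (grey). Tnfrsf12a lies at -1.46 and -1.53 and Tnfrsf21 at -0.68 and -0.61, while Tnfrsf11a lies at 0.16 in 4OHT and 0.00 in DMSO organoids, and Tnfrsf26 has no DMSO point because it was filtered.

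The ligands of the members were mostly low or not listed. The pathway lists were chosen with earlier results of these data known, so nothing is read from their counts. The counts in the pathway lists stand beside shares over all genes tested of 16.9% higher and 14.3% lower at day 2, and of 13.7% higher and 11.1% lower at day 4. Of 18 ligand genes, 8 were tested at day 2 (1 rose, 3 fell, median log2 fold change -0.03) and 9 at day 4 (3 rose, 1 fell, median 0.08). Tnf, which binds Tnfrsf1a and Tnfrsf1b, had 5.66 ± 0.542 CPM in 4OHT and 6.14 ± 0.629 CPM in DMSO libraries at day 2 (-0.11 ± 0.09, adjusted p = 0.388), and 2.60 ± 0.197 CPM in 4OHT and 1.84 ± 0.358 CPM in DMSO libraries at day 4 (0.50 ± 0.15, adjusted p = 0.0316; SD, n = 4 each). Tnfsf10, which encodes TRAIL, fell to 7.81 ± 1.57 CPM in 4OHT, against 15.3 ± 2.13 CPM in DMSO libraries at day 2, and to 28.7 ± 4.85 CPM in 4OHT, against 44.8 ± 1.499 CPM in DMSO libraries at day 4. Its log2 fold change was -0.97 ± 0.13 at day 2 and -0.64 ± 0.11 at day 4 (adjusted p = 0.000203 and 0.00185). Tnfsf14, which encodes the LIGHT ligand of Tnfrsf14, had 1.77 ± 0.34 at day 4, at a low level of 0.218 CPM in 4OHT and 0.0625 CPM in DMSO libraries. It passed the filter there through its 4OHT libraries, where it was higher. That favours its call, so the value is a description with no p. Tnfsf9 rose by 0.57 ± 0.07 at day 2 (adjusted p = 6.37e-05) and Tnfsf15 by 0.75 ± 0.19 at day 4 (adjusted p = 0.0146). Tnfsf12, the TWEAK ligand of Tnfrsf12a, was under the filter, and Tnfsf11 and Tnfsf18, the ligands of Tnfrsf11a and Tnfrsf18, are not listed.

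Downstream of the receptors, 5 of 25 adaptor and signalling genes rose and 0 fell at day 2, and 7 of 25 rose and 0 fell at day 4 (medians 0.09 and 0.09). Ripk3, the kinase of necroptosis, rose by 0.36 ± 0.05 and 0.46 ± 0.08 at day 2 and day 4 (adjusted p = 0.000133 and 0.00217). Its substrate Mlkl, which permeates the membrane in necroptosis, rose by 0.33 ± 0.05 and 0.53 ± 0.10 (adjusted p = 0.000478 and 0.00399), and Tnfaip3, the NF-kB inhibitor A20, by 0.29 ± 0.06 and 0.46 ± 0.12 (adjusted p = 0.00369 and 0.0177). Of the 14 NF-kB subunits and inhibitors, 4 rose and 3 fell at day 2, and 5 rose and 2 fell at day 4 (medians 0.03 and 0.10). Relb, a subunit of the non-canonical pathway, fell by 0.38 ± 0.06 and 0.21 ± 0.06 (adjusted p = 0.00029 and 0.0266), while Nfkb2, its partner, rose by 0.17 ± 0.04 and 0.46 ± 0.08 (adjusted p = 0.00903 and 0.00176).

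Of the NF-kB target genes, 7 of 23 rose and 4 fell at day 2, and 11 of 22 rose and 2 fell at day 4 (medians -0.03 and 0.38), and 8 of the list are also in the lists of adaptors or of NF-kB subunits and inhibitors. Tnfaip2 rose by 1.29 ± 0.09 and Ier3 by 0.96 ± 0.07 at day 2 (adjusted p = 7.96e-07 and 1.83e-06). Ccl20, a chemokine of the follicle-associated epithelium, fell by 0.23 ± 0.07 at day 2 (adjusted p = 0.0253) and rose by 1.49 ± 0.16 at day 4 (adjusted p = 0.000212). The neutrophil chemokine Cxcl1 rose by 1.59 ± 0.19 at day 4 (adjusted p = 0.000365), at means of 1.41 CPM in 4OHT and 0.470 CPM in DMSO libraries. Cxcl2, also a neutrophil chemokine, had 2.70 ± 0.33, at means of 0.614 CPM in 4OHT and 0.0894 CPM in DMSO libraries. Cxcl2 passed the filter there through its 4OHT libraries, where it was higher, which favours its call, so no p is given. Of the 5 genes for receptor shedding, 3 rose and 1 fell at day 2, and 2 rose and 1 fell at day 4 (medians 0.12 and 0.08). Rhbdf1, a cofactor of the sheddase Adam17, rose by 0.39 ± 0.04 and 0.25 ± 0.06 (adjusted p = 5.65e-05 and 0.00779), and Timp3, an inhibitor of that sheddase, fell by 0.62 ± 0.16 and 1.35 ± 0.22 (adjusted p = 0.00993 and 0.00158). With each gene counted once over these lists, 7 fell at day 4 with the replicate block and 4 without it.

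Genes whose levels ran most like those of a member over the 16 libraries were taken from 9472 genes (9473 for Tnfrsf18, Tnfrsf22 and Tnfrsf26) by Pearson's r of log2 CPM. The 16 points fall into 4 groups that differ by treatment and day, which the r values share, so they are a description with no p. Tnfrsf21 ran closest with Far1, a fatty acyl-CoA reductase gene, Zfp185 and Inf2 (r = 0.993, 0.993 and 0.991). Tnfrsf12a ran closest with Ptp4a2, a phosphatase gene, Rhpn2 and Ttll12 (r = 0.993, 0.990 and 0.990), and Tnfrsf1b with Anxa1, an annexin gene, Ano1 and Anxa5 (r = 0.981 for each). Tnfrsf1a had Cblc, a ubiquitin ligase gene, first (r = 0.981), Tnfrsf23 had B4galt4, Sdc1 and Ctsl (r = 0.976, 0.969 and 0.966), and Tnfrsf22 had Paqr5 (r = 0.975). The closest genes of Tnfrsf14, Tnfrsf26, Tnfrsf11a and Tnfrsf18 were Trim56, Pvr, Txndc5 and Mospd2, with r = 0.954, 0.909, 0.865 and 0.764. The 2 similar genes Tnfrsf22 and Tnfrsf23 were not among each other's 3 closest genes.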

How the data were processed

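Per the labels' protocols, the 16 libraries were directional poly(A) libraries from 250 ng of RNA each. The submitters' processing notes name bcl2fastq 1.8.4, STAR 2.4.0f1 and the build GRCm38; how reads were counted, with which annotation and strand setting, is not given in the sources used here. The authors deposited 1 table per day with raw read counts per gene, in which every gene has at least 10 summed counts. Their 16 normalized columns were not used.

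Counts were analysed in R 4.3.3 with edgeR 4.0.16 (TMM, filterByExpr, robust quasi-likelihood fit, Benjamini-Hochberg over all genes tested, threshold 0.05), fitted on all genes and without covariates; SEs follow from the fold change and its F statistic. Library sizes were the full table totals. The scripts were tested on simulated data. Gene positions and exon lengths came from GENCODE M21, which holds 20670 and 20542 of the gene IDs of day 2 and day 4, and 14 symbols of the day 4 table were written as dates. The members and gene lists were chosen with earlier results of these data known. The named genes were all members and measured receptors, the genes near the chromosome 7 cluster, the 3 smallest p and 2 highest levels of each other list and comparison, and the 3 genes most like each member; Tnf, Tnfsf12, Tnfsf11 and Tnfsf18 were named as ligands of members, and Birc3, Csf1, Ccl9 and Pglyrp1 after their values were seen.

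The 24 library pairs within groups differed by more than counting noise (chi-square per degree of freedom of at least 7.99). Replicate numbers paired the day 4 libraries, where deviations of same-numbered libraries from their group means correlated at 0.639 to 0.807 over 9780 genes; this comes from the data and not from the labels. Alternatives were DESeq2 1.42.0, its size factors in edgeR, other filters, a replicate block, a fit over all 16 libraries and leaving out each library.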

Additional observations from a re-analysis of the deposited data

Results flagged for a closer look

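Of 75 groups of 4 libraries screened over the receptors, 3 held a library whose gap to the nearest other took up more of the range than Dixon's 95% critical value allows, and chance flags about 1 in 20 groups. Tnfrsf22 was at 2.58 CPM in DMSO replicate 3 of day 2, where the other 3 libraries had 2.83 to 2.85 CPM. Tnfrsf19 was at 2.12 CPM in DMSO replicate 4 of day 2, with the others at 0.985 to 1.14 CPM. Relt was at 1.28 CPM in DMSO replicate 2 of day 2, with the others at 1.42 to 1.45 CPM.

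For 9 genes of the lists outside the members the effect of 4OHT differed between the days, by the interaction term of the edgeR fit over 16 libraries. They were 1 of 12 other receptors, 1 of 25 adaptors, 1 of 14 NF-kB subunits and inhibitors, 6 of 23 NF-kB targets and 3 of 5 M cell markers. Some are in 2 lists. Of all 16597 genes in this fit 1.68% were called in either direction. The lists were chosen with earlier results of these data known, so these p-values are not independent of the choice. The log2 difference, day 4 minus day 2, was 0.46 for the receptor Tnfrsf8 (adjusted p = 0.0128), 0.27 for the ubiquitin ligase gene Birc3 (0.033) and 0.67 for the NF-kB inhibitor gene Nfkbia (0.0103). It was 1.72 for Ccl20 (adjusted p = 6.83e-05), 1.35 for Cxcl1 (0.0145) and 0.96 for the growth factor gene Csf1 (0.0469). The difference was 2.04 for Cxcl2, a description with no p, since its mean was 0.0894 CPM in the DMSO libraries of day 4. The difference was 0.40 for Ccl9 (adjusted p = 0.0225) and 0.58 for Pglyrp1 (0.0276), both on the M cell list. Nfkbia fell by 0.31 ± 0.05 at day 2 and rose by 0.34 ± 0.10 at day 4 (edgeR adjusted p = 0.000482 and 0.0283).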

How the results depend on the processing

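Over 1238 alternative values, 191 of the 200 for counts and medians stayed within their limits and 9 moved. These limits are wide, and a count of 4 members called in place of 6 lay within them. Of the values for single genes, 958 kept their direction and side of the threshold. For the difference between days, which has no call, these are values that kept their sign and moved by less than the SE. Another 43 lost a call or threshold, 8 gained one and 29 turned sign. With the replicate block 1 other receptor (Relt) was called lower at day 4 and 7 genes of the pathway lists, and in the fit over all 16 libraries 1 other receptor was called lower. Among members the block ended only the fall of Tnfrsf1a over time in 4OHT organoids (0.0737), and day 4 values with it were 0.95 ± 0.06 for Tnfrsf21 and 1.14 ± 0.16 for Tnfrsf23. Tnfrsf11a over time in DMSO organoids turned to -0.0202 with DESeq2, -0.0200 with its size factors, -0.0190 without a filter and -0.0133 in the fit over 16 libraries. Leaving out each library gave 4 to 6 members higher at day 2, 5 to 8 higher at day 4, 3 to 6 lower over time in 4OHT organoids, 0 to 1 higher and 4 to 5 lower over time in DMSO organoids, and a median difference between days of 0.0083 to 0.1905. Log2 fold changes whose sign turned without 1 library ran over -0.0843 to 0.1286 (Tnfrsf14, day 2), -0.138 to 0.1337 (Tnfrsf18, day 2), -0.0438 to 0.2775 (Tnfrsf25, day 2), -0.15 to 0.0392 (Tnfrsf4, day 4), -0.0981 to 0.2933 (Tnfrsf9, day 4), -0.3406 to 0.0615 (Cd40, day 4), -0.2417 to 0.0373 (Tnfrsf19, day 4), -0.0327 to 0.0225 (Tnfrsf11a, time in DMSO), -0.2125 to 0.0882 (Tnfrsf18, time in 4OHT), -0.4886 to 0.1015 (Tnfrsf23, time in 4OHT), -0.034 to 0.563 (Tnfrsf23, difference between days) and -0.1505 to 0.1842 (Tnfrsf12a, difference between days). The cause was not tested. Tnfrsf26 had at most 36 counts in a library, which limits its precision.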

Other observations

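Over time the receptors outside the members moved both ways, with 4 of 11 rising and 4 falling in 4OHT organoids and the same counts in DMSO organoids. Over all genes tested, 25.9% rose and 23.5% fell in 4OHT organoids, and 28.7% rose and 24.8% fell in DMSO organoids. Tnfrsf19, a receptor known from stem and progenitor cells as TROY, had 7.13 CPM at day 4 and 1.01 CPM at day 2 in 4OHT organoids (log2 fold change 2.82 ± 0.16, edgeR adjusted p = 9.49e-07), and 7.91 CPM at day 4 and 1.31 CPM at day 2 in DMSO organoids (2.60 ± 0.26, adjusted p = 1.05e-05). Tnf fell by 1.11 ± 0.10 in 4OHT and by 1.72 ± 0.13 in DMSO organoids (adjusted p = 1.35e-05 and 4.22e-07), while Tnfsf10 rose by 1.89 ± 0.16 and 1.56 ± 0.08 (adjusted p = 1.94e-05 and 1.75e-08). Of the adaptor genes, 2 of 25 rose and 11 fell in 4OHT organoids, and 3 rose and 10 fell in DMSO organoids. Of the NF-kB target genes, 3 of 21 rose and 6 fell in 4OHT organoids, and 1 of 22 rose and 14 fell in DMSO organoids; the difference between these counts was not tested.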
